A study of Mus musculus with 6 samples.

Results

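The CC chemokine ligands examined here are 10 genes, Ccl2, Ccl3, Ccl4, Ccl5, Ccl6, Ccl7, Ccl8, Ccl9, Ccl12 and Ccl20, taken by gene symbol from the 35027 genes of an RNA-seq table of sorted mouse thyroid tumor cells. All 6 libraries came from mice in which thyroid-specific, doxycycline-inducible YAP S127A, a constitutively nuclear form of the transcriptional coactivator YAP, was switched on by doxycycline chow from 4 weeks of age. The 3 YAP libraries, replicates 1, 2 and 3, carried YAP S127A alone, and the 3 BrafYAP libraries, replicates 1, 2 and 6, carried it together with Braf V600E expressed from the endogenous Braf locus, the kinase mutation most common in papillary thyroid cancer. Per the study's methods, the transgenes acted in thyroid follicular cells, the RIK allele supplied the doxycycline-responsive activator rtTA together with the fluorescent protein Kate, and about 20000 Kate-positive cells per library were collected by flow cytometry. Each YAP library pooled 3 tumors and each BrafYAP library held 1 tumor, so pooling and genotype cannot be told apart. The unit behind each value is the pool in YAP and the tumor in BrafYAP, not the cell. A pool averages its tumors, so the spreads of the 2 groups are not like for like, which the tests below did not model. No library without YAP S127A was part of the comparison, and the question it addresses is how the ligand genes differ when Braf V600E is added to YAP S127A.

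CC chemokines are small secreted proteins named for a pair of adjacent cysteines near their amino terminus. They bind G protein-coupled receptors of the CCR family on leukocytes and direct these cells along a concentration gradient, and atypical receptors of the ACKR family remove them without that signal. Tumor cells, fibroblasts and macrophages can all make them, most of the genes sit in dense clusters, and many are induced by NF-kB, AP-1 or interferon-regulated factors.

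By depth the libraries were alike, with an estimated 26.2 to 36.9 M reads each and 21887 to 23004 genes above the offset of the deposited table. BrafYAP replicate 6 and YAP replicate 1 had the lowest correlations across genes, at 0.733 with each other. With the remaining libraries BrafYAP replicate 6 was at 0.816 to 0.879 and YAP replicate 1 at 0.803 to 0.935. Pairs without either lay between 0.901 and 0.979. Values without BrafYAP replicate 6 are given where it moves a ligand result. Kate-positive cells were labelled as thyroid cancer cells. The thyroid transcription factor gene Pax8 was detected in all 6 libraries and the epithelial keratin gene Krt18 was at 499.9 to 1399 TPM, but the thyrotropin receptor gene Tshr was listed at 0 in 2 libraries. Macrophage genes were also found in the same sorted cells, at widely differing levels. Lyz2, the highest of 14 such markers, was at 296.9 to 3960 TPM, whereas Adgre1, Mrc1 and Ptprc were under 1 TPM in all 6 libraries. The deposited TPM were read as divided by genomic span, so they do not compare genes of unlike span.

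Of the 10 ligands, 9 lie on chromosome 11 in 2 blocks and Ccl20 lies alone on chromosome 1 (83116766 to 83119167, plus strand, mm10). The first block spans 81.2 kb and holds, in order, Ccl2 (82035571 to 82037453), Ccl7 (82045712 to 82047525), Ccl12 (82101845 to 82103400) and Ccl8 (82115185 to 82116799), all on the plus strand. The second begins 1409 kb further on, spans 138.9 kb and holds Ccl5 (83525778 to 83530518), Ccl9 (83572919 to 83578636), Ccl6 (83587882 to 83593087) and Ccl3 (83647844 to 83649355) on the minus strand and Ccl4 (83662584 to 83664683) on the plus strand. No stretch of 50 bases was shared between the transcripts of any pair of the 10 genes, so reads of this length that match a transcript fully separate the ligands from each other. Ccl9 shared 59 of its 2996 distinct stretches with genes other than the 10 ligands. Ccl2 overlaps the antisense gene Gm17268 and Ccl6 overlaps the antisense gene E230016K23Rik, and because counting by strand was not stated, reads of those overlaps cannot be told apart.

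Promoter sequence was at hand for 6 of the 10 ligands, Ccl3, Ccl6, Ccl8, Ccl9, Ccl12 and Ccl20, and not analysed here for Ccl2, Ccl4, Ccl5 and Ccl7. The windows are those of RefSeq on GRCm38.p6, from 250 bases before to 50 after the start of the gene. They were searched on both strands for the NF-kB motif, for AP-1 (TGANTCA), for the core of the interferon-stimulated response element (ISRE) and for the TEAD motif of the factors that YAP binds (GGAATG). Of 32851 promoters of the same length, 8.46% held the NF-kB motif, 7.81% AP-1, 3.44% the interferon element core and 14.7% the TEAD motif. The 250 bases before the start are shown for Ccl20 and Ccl12, the ligands with a promoter at hand whose genotypes did not overlap, and for Ccl9, the other ligand with a match. Capitals mark a motif match and all else is in lower case, 5′ to 3′ on the strand of the gene.
Ccl20, chr1:83116516-83116765, plus strand: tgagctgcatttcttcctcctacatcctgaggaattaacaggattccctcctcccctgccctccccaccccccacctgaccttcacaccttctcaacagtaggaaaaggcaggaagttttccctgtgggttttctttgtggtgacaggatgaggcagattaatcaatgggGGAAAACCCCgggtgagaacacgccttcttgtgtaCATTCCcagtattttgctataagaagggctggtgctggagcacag
Ccl12, chr11:82101595-82101844, plus strand: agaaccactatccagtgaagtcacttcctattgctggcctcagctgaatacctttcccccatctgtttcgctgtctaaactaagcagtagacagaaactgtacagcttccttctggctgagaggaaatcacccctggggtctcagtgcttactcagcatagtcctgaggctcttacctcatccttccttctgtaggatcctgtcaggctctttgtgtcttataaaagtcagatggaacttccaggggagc
Ccl9, chr11:83578637-83578886, minus strand: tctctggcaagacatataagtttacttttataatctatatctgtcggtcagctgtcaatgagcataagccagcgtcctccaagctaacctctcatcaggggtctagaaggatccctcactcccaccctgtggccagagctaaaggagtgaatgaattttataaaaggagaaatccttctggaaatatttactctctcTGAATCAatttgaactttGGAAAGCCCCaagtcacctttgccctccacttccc
In Ccl20 the NF-kB match began 80 bases before the start and the TEAD match 45 bases before it, both read on the opposite strand. In Ccl9 an AP-1 match began 53 bases before the start and an NF-kB match on the opposite strand began 35 bases before it. None of these matches overlapped another. The windows of Ccl3, Ccl6, Ccl8 and Ccl12 held none of the 4 motifs, which says only that these letters are not in those windows. A match is a description of the sequence and was not tested as a binding site.

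Measured against YAP cells, the BrafYAP cells had lower fitted values for the whole group, and by the widest margin for Ccl20, Ccl5, Ccl2 and Ccl12, but no ligand passed the test. The test was limma on log2(TPM + 1), fitted to the 7319 genes with a mean of at least 1 TPM, with a Benjamini-Hochberg adjusted p under 0.05 as the threshold. Of the 10 ligands 0 passed, where 18 of all genes tested did (0.246%). At an unadjusted p under 0.05, 3 of 10 ligands were lower in BrafYAP (Ccl5, Ccl12 and Ccl20) and 0 were higher, against 9.17% of all genes tested lower and 10.7% higher. All 10 ligands had a log2 fold change below 0, against 55.3% of genes tested, with a median of -1.02 against -0.06. For 4 of 10, Ccl2, Ccl5, Ccl12 and Ccl20, every YAP library lay above every BrafYAP library, as for 16.4% of genes tested. All 10 had a mean of at least 1 TPM, Ccl5 and Ccl12 only through the YAP libraries, so for these last the filter favored a difference. Fold changes on this scale understate the change of low genes. In bulk cells such as these, fewer cells of a type and less RNA per cell cannot be told apart. Without BrafYAP replicate 6, 8 of the 10 were lower and their median was -0.73, against 54.7% of genes lower in that fit. Again 0 passed the threshold (0.276% of genes did), and 5 did not overlap, Ccl8 in addition to the other 4 (22.2% of genes). In that fit Ccl8, too, reached the mean of 1 TPM only through the YAP libraries.

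**Figure D1:**
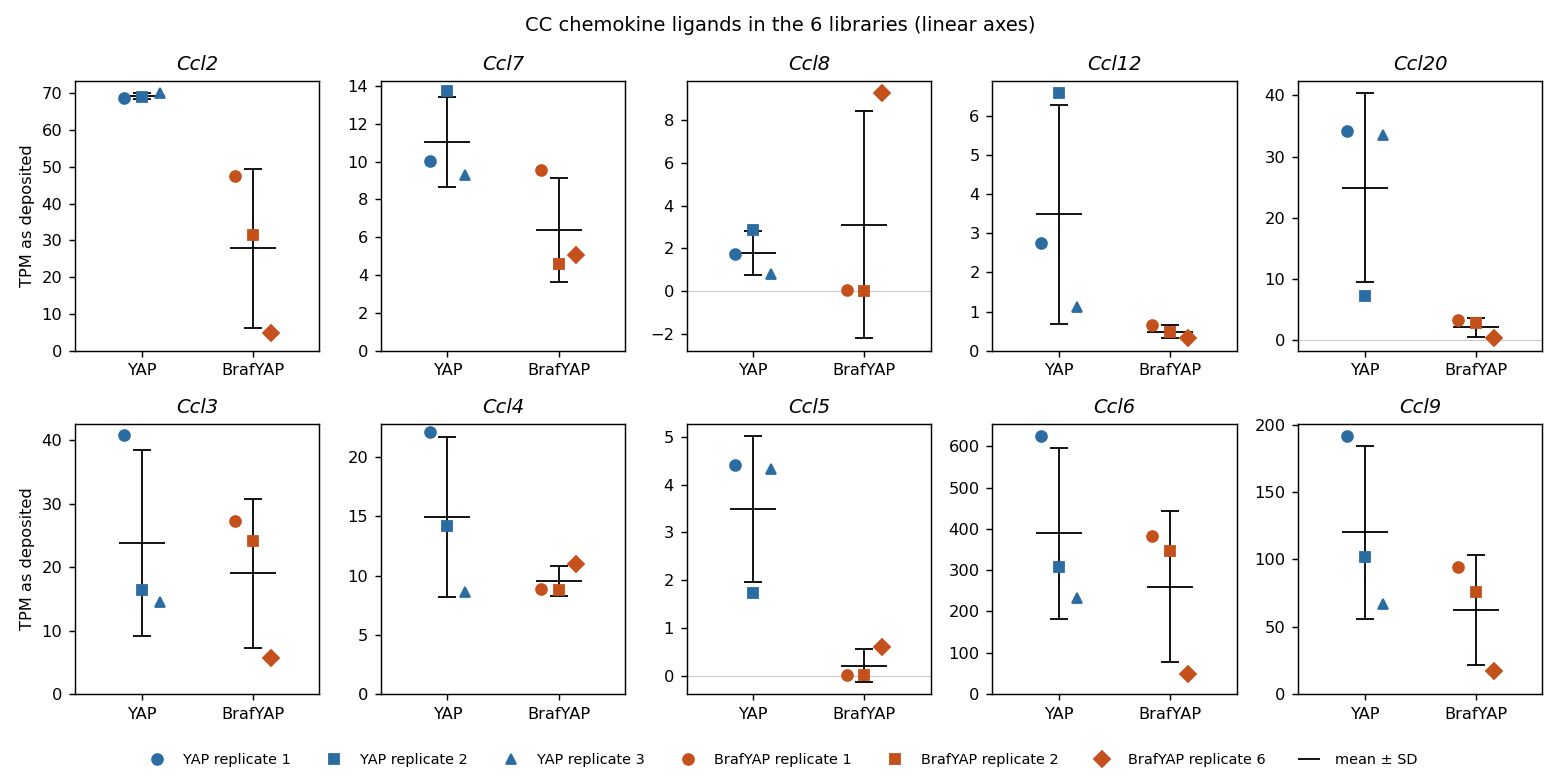
Deposited TPM (linear axes) of each of the 10 ligands in the 3 YAP and 3 BrafYAP libraries. Each point is 1 library, the wide horizontal line is the mean and the bars are ± 1 SD (n = 3). Ccl2, Ccl5, Ccl12 and Ccl20 show no overlap, with all YAP points above all BrafYAP points, and the BrafYAP mean of Ccl8 is carried by replicate 6 at 9.23 TPM.

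Ccl2, Ccl7, Ccl12 and Ccl8 form the monocyte chemoattractant family, whose members Ccl2, Ccl7 and Ccl12 act on CCR2 of inflammatory monocytes. Ccl2 was at 68.7, 69.1 and 70.1 TPM in YAP replicates 1, 2 and 3 and at 47.6, 31.3 and 4.71 TPM in BrafYAP replicates 1, 2 and 6. The YAP libraries were nearly level with each other, all BrafYAP libraries lay below them, and the BrafYAP libraries differed widely among themselves. These spreads compare pools of 3 tumors in YAP with single tumors in BrafYAP. Means were 69.3 ± 0.735 TPM (SD, n = 3) and 27.9 ± 21.6 TPM (SD, n = 3), with a log2 fold change of -1.76 (limma SE 0.75, adjusted p = 0.252). Without BrafYAP replicate 6 it was -0.83 (limma SE 0.29, adjusted p = 0.215), still with no overlap, and 301 estimated reads of Ccl2 stood in that library against 2266 to 3861 in the other 5.

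Ccl12, a mouse ligand of CCR2, was at 2.76, 6.57 and 1.12 TPM in YAP and at 0.662, 0.469 and 0.322 TPM in BrafYAP libraries. The YAP values spread over a wide range, and the lowest of them still exceeded the highest BrafYAP value. Its mean was 7.20-fold higher in YAP, 3.49 ± 2.80 (SD, n = 3) against 0.484 ± 0.170 TPM (SD, n = 3), with a log2 fold change of -1.41 (limma SE 0.44, adjusted p = 0.148). These values rest on 51 to 252 reads in YAP and on 17 to 28 in BrafYAP libraries. Without YAP replicate 2, the highest, the mean was 4.01-fold higher in YAP and the log2 fold change -0.93 (SE 0.29, limma adjusted p = 0.112). Without BrafYAP replicate 6 the latter was -1.33 (SE 0.51).

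Ccl7, a broad attractant of monocytes through CCR2 and other receptors, was at 10.0, 13.8 and 9.29 TPM in YAP and at 9.57, 4.57 and 5.08 TPM in BrafYAP libraries. BrafYAP replicate 1 lay within the YAP range and the other BrafYAP libraries below it. The log2 fold change was -0.74 (limma SE 0.32, adjusted p = 0.255).

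Ccl8, whose mouse protein acts on CCR8, differed from its neighbors in its pattern. It was at 1.75, 2.84 and 0.783 TPM in YAP and at 0.0684, 0.0162 and 9.23 TPM in BrafYAP libraries. BrafYAP replicate 6 held the highest value of all 6 libraries and BrafYAP replicates 1 and 2 the lowest, with 506, 3 and 1 estimated reads respectively. With all libraries the log2 fold change was -0.25 (limma SE 0.88, adjusted p = 0.895), although the mean on the TPM scale was higher in BrafYAP, 3.11 ± 5.31 (SD, n = 3) against 1.79 ± 1.03 (SD, n = 3). Without BrafYAP replicate 6 it was -1.35 (limma SE 0.32, adjusted p = 0.128) and the genotypes did not overlap. In that fit the means were 1.79 TPM in YAP and 0.0423 TPM in BrafYAP. Ccl8 thus reached the mean of 1 TPM needed for testing only through the YAP libraries, so the filter favored a difference. Within the block, Ccl2 was therefore lowest and Ccl8 highest in the same BrafYAP library.

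Ccl20, the ligand of CCR6 on dendritic and type 17 T cells and a gene that epithelial cells can induce, had the widest difference on the fitted scale among the ligands. It was at 34.2, 7.13 and 33.5 TPM in YAP and at 3.23, 2.71 and 0.233 TPM in BrafYAP libraries. YAP replicate 2 lay well under the other YAP libraries yet above each BrafYAP library, and BrafYAP replicate 6 was the lowest. The YAP mean of 24.9 ± 15.4 TPM (SD, n = 3) was 12.1-fold that of BrafYAP, 2.06 ± 1.602 (SD, n = 3), with a log2 fold change of -2.998 (limma SE 0.71, adjusted p = 0.0953). Estimated reads of Ccl20 numbered 422 to 2405 in YAP and 19 to 250 in BrafYAP libraries. It passed the threshold without YAP replicate 2 (log2 fold change -3.70, limma adjusted p = 0.0361, in a fit that called 6.39% of genes), and was at -2.44 without BrafYAP replicate 6.

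Ccl3, Ccl4 and Ccl5 are inflammatory ligands of T cells and macrophages, and Ccl3 and Ccl5 bind CCR1. Ccl5, made in quantity by activated T cells and by cells responding to interferon or viral RNA, was at 4.40, 1.74 and 4.33 TPM in YAP and at 0.0156, 0.0221 and 0.603 TPM in BrafYAP libraries. Every YAP library exceeded every BrafYAP library, and BrafYAP replicate 6 lay well above the other BrafYAP libraries. The reads behind these values were 612, 203 and 601 in YAP and 2, 4 and 97 in BrafYAP libraries. Its mean was 16.3-fold higher in YAP, 3.49 ± 1.52 (SD, n = 3) against 0.214 ± 0.337 TPM (SD, n = 3). This ratio rests on BrafYAP replicate 6, without which the BrafYAP mean was 0.0188 TPM, on 2 and 4 reads, and the ratio 185.3. The log2 fold change was -1.86 (limma SE 0.33, adjusted p = 0.0797), and on log2(scaled reads + 1), which weighs low values more, it was -5.45 (limma SE 1.24, adjusted p = 0.101). It was -2.07 (SE 0.33, limma adjusted p = 0.0751) without BrafYAP replicate 6. Ccl5, too, passed the threshold without YAP replicate 2 (log2 fold change -2.18, limma adjusted p = 0.0361), the fit that called 6.39% of genes. It reached the mean of 1 TPM needed for testing only through the YAP libraries.

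Ccl3 was at 40.8, 16.4 and 14.4 TPM in YAP and at 27.3, 24.2 and 5.61 TPM in BrafYAP libraries, which overlapped. Its log2 fold change was -0.42 (limma SE 0.65, adjusted p = 0.742), and it turned to 0.25 (SE 0.47) without BrafYAP replicate 6 and to 0.03 without YAP replicate 1. Ccl4, the gene next to Ccl3, was at 22.1, 14.2 and 8.63 TPM in YAP and at 8.82, 8.79 and 10.99 TPM in BrafYAP libraries. The BrafYAP values were close together and lay inside the YAP range, with a log2 fold change of -0.52 (limma SE 0.35, adjusted p = 0.444). In BrafYAP replicate 6, the lowest library for Ccl3, Ccl4 was at its highest among the BrafYAP libraries.

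**Figure D2:**
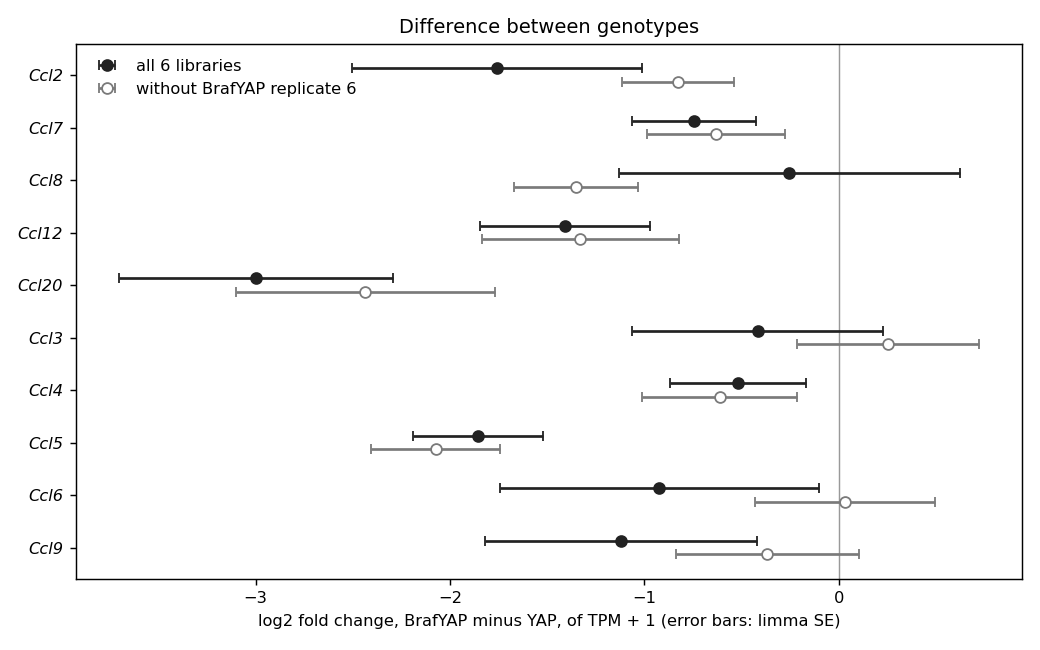
Log2 fold change of TPM + 1, BrafYAP minus YAP (horizontal axis), for each ligand, with limma standard errors as bars, in all 6 libraries (filled) and without BrafYAP replicate 6 (open). All 10 filled points lie below 0. Without that library Ccl2 moved from -1.76 to -0.83, Ccl8 from -0.25 to -1.35 and Ccl6 from -0.92 to 0.03.

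Ccl6 and Ccl9, rodent ligands of CCR1 made by macrophages and other myeloid cells, were the most abundant ligands. Ccl6 was at 624.5, 308.6 and 233.2 TPM in YAP and at 383.1, 345.3 and 48.9 TPM in BrafYAP libraries. BrafYAP replicates 1 and 2 lay inside the YAP range and replicate 6 far below it. The log2 fold change of -0.92 (limma SE 0.82, adjusted p = 0.552) became 0.03 (SE 0.46) when that library was left out. Ccl9, its neighbor on the same strand, was at 191.6, 101.9 and 66.7 TPM in YAP and at 94.6, 75.6 and 16.8 TPM in BrafYAP libraries, which overlapped (log2 fold change -1.12, limma SE 0.70, adjusted p = 0.407, and -0.37, SE 0.47, without BrafYAP replicate 6). The deposited value of Ccl9 as a ratio to that of Ccl6, both per genomic span, was 0.307, 0.330 and 0.286 in YAP and 0.247, 0.219 and 0.343 in BrafYAP libraries. Both genes were highest in YAP replicate 1 and lowest in BrafYAP replicate 6.

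For each ligand an exact two-sided permutation test of the log2 values was run as well. With 3 libraries a side its smallest possible p is 0.1, so it cannot reach 0.05, and it gave 0.1 for the 4 ligands without overlap and 0.2 to 0.9 for the other 6.

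**Figure D3:**
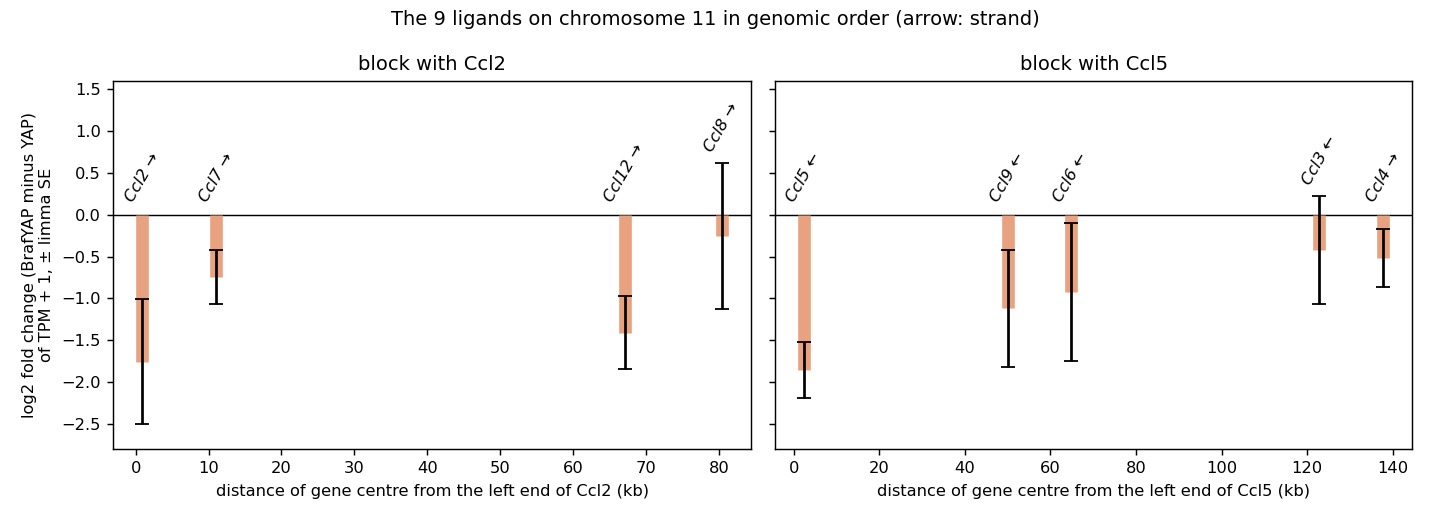
Log2 fold change of TPM + 1, BrafYAP minus YAP (bars from 0, ± limma SE), of the 9 ligands on chromosome 11 against the distance of each gene's center from the left end of its block, in kb, with arrows for the strand. In the first block the values ran from -1.76 for Ccl2 to -0.25 for Ccl8, and in the second from -1.86 for Ccl5 to -0.42 for Ccl3.

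To compare the ligands with each other, the estimated reads were divided by each gene's exonic length and scaled to the deposited library total. On this scale the order of mean levels in YAP cells was Ccl6 at 530.5 ± 278.9 (SD, n = 3), Ccl9 at 105.9 ± 55.9, Ccl2 at 54.2 ± 2.88, Ccl4 at 22.4 ± 9.83, Ccl3 at 22.2 ± 13.5, Ccl20 at 20.2 ± 12.8, Ccl7 at 11.8 ± 2.09, Ccl5 at 8.24 ± 3.76, Ccl12 at 4.67 ± 3.61 and Ccl8 at 2.63 ± 1.43. Neighbors in this order overlapped between libraries from Ccl4 downward, while the first 3 genes were each separate from the next. In BrafYAP cells Ccl6 was again first at 369.5 ± 261.4 (SD, n = 3), followed by Ccl9 at 57.5 ± 37.4 and Ccl2 at 22.6 ± 17.5, and Ccl4 against Ccl7 was the one pair of neighbors without overlap. Ccl20, ranked 6 in YAP, was ranked 8 in BrafYAP at 1.71 ± 1.33 (SD, n = 3), and Ccl5 came last at 0.511 ± 0.806 (SD, n = 3). The place of Ccl20 behind Ccl8 rests on BrafYAP replicate 6, and without that library Ccl20 ranked 7 and Ccl8 9.

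By share of the summed exonic level of the 10 ligands, Ccl6 and Ccl9 together held 85.1, 80.0 and 74.3% in YAP and 87.1, 88.8 and 63.7% in BrafYAP libraries. Ccl20 held 2.26, 0.887 and 5.25% in YAP and 0.369, 0.356 and 0.145% in BrafYAP libraries, and did not overlap between the genotypes. Ccl3, Ccl4 and Ccl5 together held 6.76, 6.34 and 7.17% in YAP and 5.55, 5.89 and 18.0% in BrafYAP libraries. BrafYAP replicate 6 therefore differed from its group in composition as well as in amount. Its summed exonic level was 131.8, against 719.8 and 641.6 in the other BrafYAP libraries and 534.2 to 1197 in YAP.

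**Figure D4:**
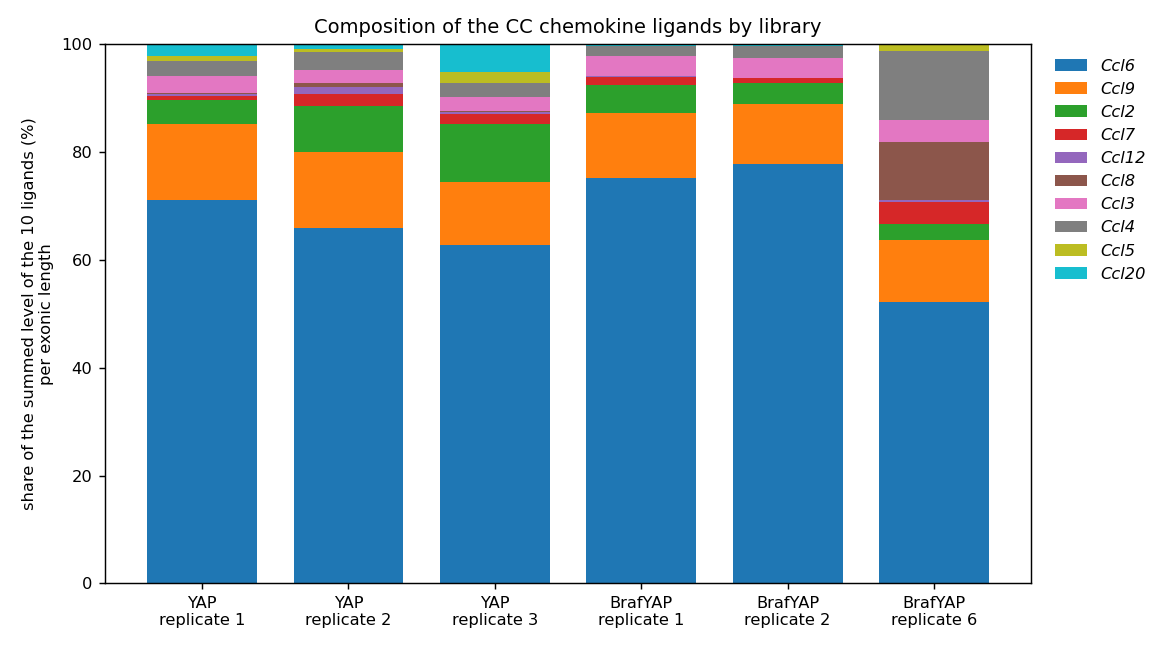
Share of the summed level of the 10 ligands, per exonic length (vertical axis, %), that each ligand held in each library (stacked bars). Ccl6 and Ccl9 made up 63.7 to 88.8% of each bar, and the bar of BrafYAP replicate 6 held more Ccl3, Ccl4 and Ccl5 together (18.0%) than any other library.

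The receptors of these ligands were then compared. Of 13 CC and atypical chemokine receptor genes, 4 had a mean of at least 1 TPM, a further 5 averaged 10 reads or more and were tested on log2(scaled reads + 1), a fit in which 0% of 16804 genes passed the threshold and 10.6% were lower at an unadjusted p under 0.05, and 4 (Ccr3, Ccr4, Ccr10 and Ackr2) fell below both. With limma 0 of the 9 tested passed the threshold and 2 were lower at an unadjusted p under 0.05, Ccr1 and Ccr2, which both cleared the TPM filter. Ccr2, the monocyte receptor of Ccl2, Ccl7 and Ccl12, was at 12.7, 15.0 and 5.61 TPM in YAP and at 1.98, 2.17 and 3.21 TPM in BrafYAP libraries (log2 fold change -1.73, limma SE 0.37, adjusted p = 0.0903). Every YAP library lay above every BrafYAP library, and unlike Ccl2 its highest BrafYAP value was that of replicate 6. Ccr1, the receptor of Ccl3, Ccl5, Ccl6 and Ccl9, was at 16.5, 15.3 and 8.37 TPM in YAP and at 7.66, 3.18 and 2.02 TPM in BrafYAP libraries (log2 fold change -1.53, limma SE 0.45, adjusted p = 0.133). Ccr1 did not overlap between the genotypes either, though YAP replicate 3 and BrafYAP replicate 1 were close.

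Ccrl2, an atypical receptor that presents chemerin rather than these ligands, was at 71.5, 63.9 and 15.1 TPM in YAP and at 26.8, 19.1 and 21.03 TPM in BrafYAP libraries, which overlapped (log2 fold change -0.87, limma SE 0.58, adjusted p = 0.437). Ccr7, the homing receptor of mature dendritic cells and naive T cells, was at 0.862, 0.806 and 0.622 TPM in YAP and at 0.409, 0.211 and 3.91 TPM in BrafYAP libraries (log2 fold change 0.21, limma SE 0.51, adjusted p = 0.847). The highest library was BrafYAP replicate 6, as for Ccl8. Without it Ccr7 averaged under 1 TPM, and on the reads its log2 fold change was then -1.36 (SE 0.41, limma adjusted p = 0.145), with no overlap. Ccr8, the receptor of mouse Ccl8, had 20, 20 and 14 estimated reads in YAP and 1, 1 and 41 in BrafYAP libraries, likewise highest in BrafYAP replicate 6, without which its log2 fold change on the reads moved from -1.97 to -3.39 (limma adjusted p = 0.0848). Ccr6, the receptor of Ccl20, had 7, 14 and 0 reads in YAP and 0, 0 and 80 in BrafYAP libraries, so the receptor was highest in the library where Ccl20 was lowest. Ccr6, Ccr8, Ccr9, Ackr1 and Ackr4 overlapped between the genotypes, with limma adjusted p-values from 0.408 to 0.938 on the reads.

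**Figure D5:**
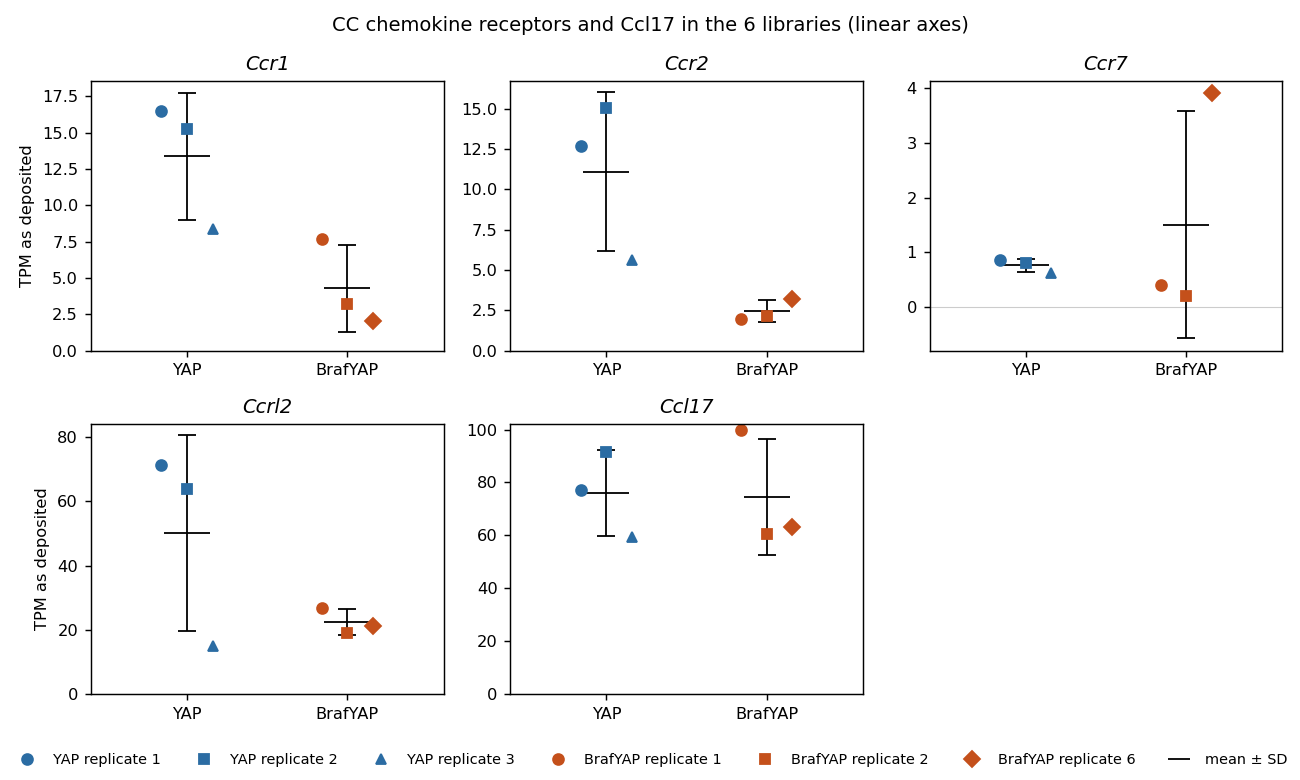
Deposited TPM (linear axes) of 4 chemokine receptor genes and of the ligand gene Ccl17 in the 6 libraries, 1 point per library, with the mean and ± 1 SD (n = 3). Ccr1 and Ccr2 show all YAP points above all BrafYAP points, whereas Ccl17 overlaps, at 59.3 to 91.6 TPM in YAP and 60.5 to 99.7 TPM in BrafYAP.

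Other mouse CC ligands were listed as well, 11 in number, of which 10 were in the table, 4 had a mean of at least 1 TPM and 3 were tested on reads. With limma 0 passed the threshold, and 1 was lower and 0 higher at an unadjusted p under 0.05. By that rule 9.17% of genes tested on TPM and 10.6% of those on the reads were lower. Ccl17, a ligand of CCR4 made by dendritic cells and alternatively activated macrophages, was the most abundant of them, at 77.3, 91.6 and 59.3 TPM in YAP and at 99.7, 60.5 and 63.1 TPM in BrafYAP libraries. Its means were 76.1 ± 16.2 (SD, n = 3) and 74.4 ± 21.9 TPM (SD, n = 3), with a log2 fold change of -0.05 (limma SE 0.31, adjusted p = 0.950). Ccl22, which shares the receptor CCR4, was at 1.94, 1.31 and 0.565 TPM in YAP and at 1.34, 0.512 and 3.63 TPM in BrafYAP libraries, which overlapped. Ccl21a, a lymphoid homing ligand with near-identical gene copies whose reads are uncertain, ranged from a listed 0 to 17.7 TPM in YAP and from a listed 0 to 11.2 TPM in BrafYAP. The 1 lower gene was Ccl24, an eosinophil attractant, which is named here after its values were seen: 1.29, 0.874 and 0.637 TPM in YAP and 0.0355, 0.101 and 0.152 TPM in BrafYAP libraries, with a log2 fold change of -3.27 on the reads (limma SE 0.65, adjusted p = 0.0887). At 86.8 scaled reads in YAP and 8.89 in BrafYAP, Ccl24 reached the mean of 10 reads only through the YAP libraries, so the filter favored a difference.

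Among 17 genes for inducers of CC chemokines, such as inflammatory cytokines, Toll-like receptors, NF-kB components and interferon regulators, 15 were tested and 0 passed the threshold with limma. At an unadjusted p under 0.05, 4 were lower in BrafYAP (Tlr2, Nfkb1, Irf1 and Irf7) and 1 was higher (Jun). Of genes tested on TPM, 9.17% were lower and 10.7% higher. Nfkb1 was tested on the reads, where 10.6% of genes were lower. None of these 5 genes overlapped between the genotypes. On TPM 16.4% of genes tested had all YAP above all BrafYAP libraries and 11.8% the reverse. All of the 5 but Jun were named after their values were seen. Jun, a subunit of AP-1, was at 6.06, 55.0 and 15.4 TPM in YAP and at 71.8, 113.4 and 246.0 TPM in BrafYAP libraries (log2 fold change 2.77, limma SE 0.79, adjusted p = 0.129). Irf7, a master regulator of interferon genes, was at 52.5, 59.3 and 35.3 TPM in YAP and at 6.50, 3.06 and 9.93 TPM in BrafYAP libraries (log2 fold change -2.82, limma SE 0.41, adjusted p = 0.0511). Without YAP replicate 2 Irf7 and Jun each had a limma adjusted p of 0.0375, and without BrafYAP replicate 6 that of Irf7 was 0.0497. The interferon gene Ifnb1 was listed at 0 in 3 libraries. The cytokine gene Il1b was at 109.9, 57.5 and 30.2 TPM in YAP and at 55.7, 29.96 and 57.4 TPM in BrafYAP libraries, and the NF-kB inhibitor gene Nfkbia at 24.0, 169.0 and 93.2 TPM against 153.7, 134.6 and 69.2 TPM. Both of these overlapped between the genotypes.

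Markers of other cell types were read beside the ligands. All 14 macrophage and monocyte markers tested had a log2 fold change below 0, against 55.3% of genes tested on TPM. At an unadjusted limma p under 0.05, 13 were lower, against 9.17% of genes on TPM and 10.6% on the reads. Adgre1, Mrc1 and Ptprc were tested on the reads. For 11 markers all YAP lay above all BrafYAP libraries, as for 16.4% of genes tested on TPM. None of the markers passed the threshold. The summed level of the 14 markers was 1872 to 5919 TPM in YAP and 623 to 1864 TPM in BrafYAP libraries. Because the deposited TPM were read as divided by genomic span, markers of long span count for less in this sum. Each marker was above the offset in all 6. Lyz2 was the largest part of the sum, at 3960, 2863 and 1064 TPM in YAP and 1179, 875 and 297 TPM in BrafYAP. Lyz2 by itself overlapped between the genotypes. In the sum the groups did not overlap, though 1872 TPM in YAP replicate 3 and 1864 TPM in BrafYAP replicate 1 were nearly level. BrafYAP replicate 6 was the lowest, as it was for Ccl2, Ccl3, Ccl6, Ccl9, Ccl12 and Ccl20. The median of the 11 markers tested on TPM was -1.85, and -1.32 without that library. Their part in the result was not tested. Per 100 TPM of this sum, Ccl6 was at 10.6, 5.93 and 12.5 in YAP and at 20.5, 27.1 and 7.86 in BrafYAP libraries, and Ccl2 at 1.16, 1.33 and 3.74 against 2.55, 2.46 and 0.756, both with overlap. Ccl5 on this basis was at 0.0744, 0.0334 and 0.231 in YAP and at 0.000837, 0.00173 and 0.0968 in BrafYAP libraries, which overlapped, as did Ccl20 at 0.577, 0.137 and 1.79 against 0.173, 0.213 and 0.0374. Ccl12, at 0.0467, 0.126 and 0.0598 against 0.0355, 0.0368 and 0.0517, overlapped too. Ccl3 lay the other way, at 0.689, 0.315 and 0.771 in YAP and at 1.47, 1.90 and 0.901 in BrafYAP libraries, and so did Ccl4, at 0.373, 0.273 and 0.461 against 0.473, 0.690 and 1.76, in both genes with every BrafYAP library above every YAP library. Ccl7, Ccl8 and Ccl9 overlapped. The Ccl4 ranges nearly touched, at 0.461 in YAP replicate 3 and 0.473 in BrafYAP replicate 1. Because the sum was lower in BrafYAP, a gene with level TPM is higher there on this basis. Ccl17, level on TPM (log2 fold change -0.05), was at 1.31, 1.76 and 3.17 against 5.35, 4.75 and 10.1. The share of all genes that behave so was not computed.

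The summed levels of the other marker lists overlapped between the genotypes, except for mast cell markers. These sums, too, give less weight to markers of long span, so they compare libraries and not lists. T and NK cell markers summed to 0.856 to 2.96 TPM in YAP and 0.224 to 2.58 TPM in BrafYAP, with 0 of 7 tested past an unadjusted p under 0.05, and within BrafYAP they were highest in replicate 6, like Ccl5 and Ccl8. Fibroblast markers summed to 15.8 to 31.4 TPM in YAP and 12.9 to 27.8 TPM in BrafYAP, with Col1a1 lower and Dcn and Lum higher at an unadjusted p under 0.05 and without overlap. These and the other single markers named here were chosen after their values were seen. Endothelial markers summed to 0.170 to 2.38 and 0.0770 to 0.747 TPM. Mast cell markers summed to 0.170 to 0.330 TPM in YAP and 0.0425 to 0.0499 TPM in BrafYAP, nearly all of it Kit. B cell markers summed to at most 0.764 TPM in any library. Neutrophil markers summed to 1.25 to 1.41 TPM in YAP and 0.878 to 2.35 TPM in BrafYAP. Ly6g was listed at 0 in all 6, S100a8 was present in all 6 with overlap, and Csf3r was at 0.487, 0.939 and 0.179 TPM in YAP and at 0.0999, 0.00665 and 0.0342 TPM in BrafYAP libraries, without overlap (log2 fold change -3.81 on the reads, limma adjusted p = 0.117). Epithelial markers summed to 967 to 2707 TPM in YAP and 1043 to 2514 TPM in BrafYAP, although Epcam was at 1.18, 0.833 and 2.69 TPM in YAP and at 4.02, 3.42 and 15.4 TPM in BrafYAP libraries, without overlap (log2 fold change 1.54, limma adjusted p = 0.180). Thyroid markers summed to 9.76 to 14.8 and 6.27 to 15.5 TPM. This sum hid differences within BrafYAP. Tg was at 0.0238, 0.00965 and 3.62 TPM and Slc5a5 at 0.0374, 0.00802 and 1.91 TPM in BrafYAP replicates 1, 2 and 6. Pax8, at 7.52, 4.36 and 3.13 TPM, was the only thyroid marker lowest in replicate 6 among the BrafYAP libraries. In YAP libraries Tg was at 1.23, 0.236 and 3.08 TPM. The part of these lists in the ligand values was not tested.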

How the data were processed

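Libraries were made by the study from about 20000 sorted Kate-positive cells each (SMART-Seq v4, 12 amplification cycles, then 8 PCR cycles, paired reads of 50 bases). Per the labels, bcl2fastq 2.2, STAR 2.6.1d and Partek were used with the mm10 build. The authors quantified genes with the Partek E/M model on an Ensembl annotation and deposited TPM values with 0.0001 added. The deposited TPM of 35027 genes sums to the same total in each library. Between 71.7 and 76.1% of low values (under 200 reads) were whole multiples, within 0.05, of a per-library step divided by the genomic span of the gene, against 22.4 to 25.1% with the exonic length, so the values were read as divided by the span. These steps gave the estimated reads, which are estimates and not counts, and few reads limit the precision of low genes. PCR duplicates were not marked by molecular identifiers.

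Groups came from the labels, which give no batch. Because the unit is TPM, no count model was used. limma 3.58.1 (R 4.3.3; lmFit and a two-sided eBayes with a trend for the mean) was fitted to log2(TPM + 1) over every gene whose mean reached 1 TPM, and p-values were adjusted by Benjamini-Hochberg over all of them. Listed genes below that mean were tested in the same way on log2(scaled reads + 1) over the 16804 genes that averaged 10 reads or more. Loci came from GENCODE on mm10 and promoters from RefSeq on GRCm38.p6. Python 3.11.15, pandas 2.3.3 and matplotlib 3.10.9 were used for tables and plots.

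The members and lists were chosen with earlier results of these data known. Named are all 10 ligands, all receptors, and from other lists the genes past the threshold and the 3 with the highest mean, with exceptions stated. Alternatives covered the pseudocount, the filter, normalization, length, variance model, replicate block, fold minimum and each library left out. The labels call the libraries of a genotype separate tumors or pools. The study's methods name 1 tumor per replicate, whereas the labels give 3 pooled tumors for YAP, and the labels were followed. A few genes of the lists are not reported here and were left out of the list counts.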

Additional observations from a re-analysis of the deposited data

How the results depend on the processing

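Across 17 alternatives to the fit, 154 of 166 log2 fold changes of the 10 ligands kept their direction and side of the threshold, 4 newly passed it (Ccl5 and Ccl20, each with array weights and without YAP replicate 2) and 8 reversed. The count of ligands past the threshold was 2 with array weights, a fit that called 1393 of 7319 genes and whose weights were estimated gene by gene, a choice made after the data were seen, and ranged from 0 to 2 over the fits that left out one library, with 2 without YAP replicate 2, where 465 of 7276 genes (6.39%) passed. Of the receptors 1, Ccr2, passed with array weights. The count of ligands without overlap ranged from 4 to 7 when one library was left out, all with YAP above BrafYAP, the 7 without YAP replicate 3. In these fits 20.2 to 27.1% of all genes did so, and 20.2% without YAP replicate 3.

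With array weights Ccl3 was at 0.51, Ccl6 at 0.28, Ccr7 at -0.25 and Ccrl2 at 0.051. Under the same weights Ccl9 moved from -1.12 to -0.03 and Ccl4 from -0.52 to -0.16, without a reversal. Ccl5 and Ccl8 moved further from 0, to -2.21 and -0.80. Leaving out one library gave Ccl3 a range of -0.80 to 0.25, Ccl6 -1.44 to 0.032 and Ccl8 -1.35 to 0.31, so the direction of these 3 rests on single libraries. Ccl2 ranged from -2.37 to -0.83, Ccl9 from -1.58 to -0.37, Ccl4 from -0.84 to -0.21, Ccl7 from -1.03 to -0.57, Ccl12 from -1.85 to -0.93, Ccl5 from -2.18 to -1.69 (limma adjusted p 0.0361 to 0.246) and Ccl20 from -3.70 to -2.44 (limma adjusted p 0.0361 to 0.268). Ccr7 was at -0.12 both with a pseudocount of 0.0001 and with the length division undone. Causes of these shifts were not tested.

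The genotypes share replicate numbers 1 and 2 only. Deviations of same-numbered libraries from their group means correlated at -0.05 for number 1 and 0.06 for number 2. Each group mean also includes a library without a partner, BrafYAP replicate 6 among them. These correlations therefore cannot decide whether same-numbered libraries were paired, and the labels give no batch. With the replicate number as a block, 0 of 7319 genes and 0 of 10 ligands passed the threshold, and Ccr7 was at -0.49. In that fit YAP replicate 3 and BrafYAP replicate 6 had no partner, so the difference rested on replicates 1 and 2. It had little power to call any gene, so its count of 0 cannot decide whether the number matters. Low genes such as Ccl5 and Ccl8, with 1 to 4 reads in BrafYAP replicates 1 and 2, are limited by depth.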

Other observations

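For each ligand the genes whose values over the 6 libraries were most like its own were listed from 6124 genes with a mean of at least 1 TPM, predicted genes passed over, by Pearson's r of log2(TPM + 1). The points are libraries that share genotype and pooling within a group, and r is given as a description with no test. For Ccl2 they were Poglut1, P4ha1 and Tkt, for Ccl20 Mrpl21, Rbbp5 and Bpnt1, and for Ccl5 Birc2, Bhlhe41 and Csrp1. Ccl6 was most like Arhgap1, Arg1 and Ppp1r8, Ccl9 most like Mmp12, Clp1 and Tmem206, and Ccl12 most like Ms4a7, H2-M2 and Gatm. The lists for Ccl3 (Ncstn, Rbpj-ps3 and Ufd1), Ccl4 (Psmb6-ps2, Ripk3 and Tmem140), Ccl7 (Pitpnb, B3gnt8 and Dolpp1) and Ccl8 (Rpe, BC023105 and Cdk5rap3) shared no gene with these. The r of these 30 pairs lay between 0.963 and 0.998.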
